A study of Danio rerio with 6 samples.

Results

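Among the open-chromatin regions of zebrafish embryos, 2328 held a peak in all 3 libraries of non-endothelial nuclei and in exactly 1 of 3 libraries of endothelial nuclei. They were chosen by this pattern of calls, after peaks of all 6 libraries that overlapped by at least 1 bp had been merged into 187225 union regions, of which they are 1.24%. They are 8.26% of the 28184 regions called in all 3 non-endothelial libraries. Of the 39535 regions called in exactly 2 non-endothelial libraries, 25.7% had exactly 1 endothelial call. The assay was ATAC-seq, in which a transposase inserts sequencing adapters into accessible DNA. Nuclei came from deyolked Tg(fli1a:egfp) embryos at 24 hours post fertilization and were sorted by fluorescence, with 20000 nuclei per library. The 3 GFPplus libraries hold nuclei labelled endothelial and the 3 GFPminus libraries nuclei labelled non-endothelial; all 6 come from the same transgenic strain and age, and no treatment is given. Per the design text, nuclei were collected on 3 occasions to give biological replicates.

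Accessible DNA marks promoters, enhancers and other sites where transcription factors hold nucleosomes away, and enhancers in particular are often open in some cell types and closed in others. The fli1a gene encodes an ETS-family transcription factor that acts early in endothelial and blood-lineage development, and its regulatory sequence drives the GFP used for the sort. This reporter also labels cranial neural crest derivatives, so GFPplus is a fraction defined by a promoter, and GFPminus is a mixture of all other cell types of the embryo. In bulk nuclei, fewer nuclei with an open site and a less open site in each nucleus cannot be told apart. The labelled cell types were not checked against marker genes, and genes near the regions were not analysed here, because the gene table at hand is of another assembly than the lists (Zv9).

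The values are the authors' peak calls, made in each library by itself. The GFPplus lists held 72695, 73716 and 50396 peaks in replicates 1, 2 and 3, and the GFPminus lists 113476, 110663 and 33437. GFPminus replicate 3 stood apart as the shortest list, and so it limits which regions can have 3 GFPminus calls. With this library left out, the number of regions was 11906 in place of 2328. Leaving out GFPplus replicate 1 gave 5010 regions, and leaving out GFPplus replicate 2 gave 4487. Regions that had 2 GFPplus calls, 1 of them in the library left out, then meet the rule, so these counts are not like for like. From the deposited fold and −log10 p the pileup at each summit (the number of extended reads stacked there) could be recovered as a whole number for 99.99% of the 454383 peaks. The lowest pileup that was called was 7 in GFPplus replicates 1 and 2 and in GFPminus replicates 1 and 2, and 5 in the libraries numbered 3 of both fractions. Where a list has no peak, the reads are unknown, so the regions cannot be called closed in the GFPplus libraries without a call.

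In most of these regions the endothelial call ranked below the middle of its list, and the peaks in the longer non-endothelial lists mostly ranked above the middle. The fold enrichment is the summit's reads plus 1 over the caller's local background plus 1. The added 1 lowers the fold more where the background is low. The median fold was 4.24 in the 779 regions called in GFPplus replicate 1. It was 4.41 in the 1316 called in GFPplus replicate 2 and 4.35 in the 233 called in GFPplus replicate 3. In GFPminus replicates 1, 2 and 3 the medians over all 2328 regions were 5.39, 5.26 and 4.82. Every GFPplus median lay below every GFPminus median, with means of 4.33 ± 0.087 in GFPplus and 5.16 ± 0.297 in GFPminus libraries (SD, n = 3 each). The calls that chose the regions come from the same lists, so these values are a description and no test was run.

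Ranked within its own list, the median GFPplus call stood at the 34.7, 45.0 and 25.5 percentile of fold in replicates 1, 2 and 3, where 50 is the middle of the list. The GFPminus peaks of the same regions stood at the 72.8 and 71.5 percentile in replicates 1 and 2, but at the 34.4 percentile in replicate 3. The median of GFPminus replicate 3 therefore lay among those of the GFPplus libraries, and the fractions overlapped. The rule requires a call in GFPminus replicate 3, the shortest list, so a high rank in the longer GFPminus lists is in part what it selects. With that library left out, the medians in GFPminus replicates 1 and 2 were 56.0 and 54.5. A percentile depends on how many weak peaks a list holds, and the lists differ in length. With every list shortened to its best 33437 peaks by −log10 p and the same rule applied, 1892 regions were found (9.24% of those with 3 GFPminus calls). Their median percentile was 26.5, 35.8 and 29.8 in GFPplus replicates 1, 2 and 3, against 52.2, 51.0 and 49.8 in GFPminus replicates 1, 2 and 3. Only 277 of these regions were among the 2328, so this is largely another set under the same rule. At equal length the medians of the fractions no longer overlapped, and the GFPminus libraries lay within 3 points of each other. Equal length is not equal stringency. The lowest −log10 p kept was 9.06, 8.03 and 6.57 in GFPplus replicates 1, 2 and 3. In GFPminus replicates 1, 2 and 3 it was 9.97, 9.65 and 3.31.

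**Figure D1:**
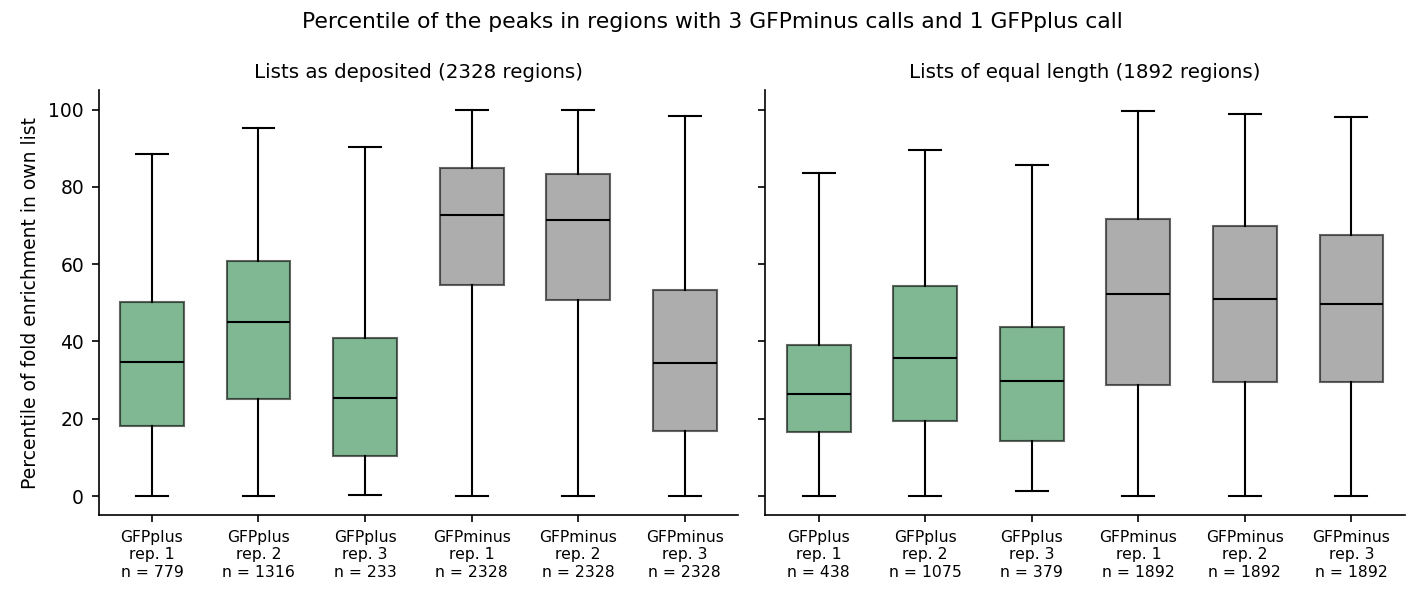
Percentile of fold enrichment within the own list (y axis) for the peaks of the regions, by library (x axis), with the 3 GFPplus lists in green and the 3 GFPminus lists in grey. The line is the median, the box the quartiles and the whiskers the lowest and highest region. As deposited, GFPminus replicate 3 (median 34.4) sits among the GFPplus lists, and at equal length all GFPminus medians are 49.8 or more and all GFPplus medians 35.8 or less. The equal-length set is 1892 regions, of which only 277 are among the 2328.

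Region by region, the GFPplus call ranked below the mean of its 3 GFPminus peaks in 1689 of the 2328 regions (72.6%), and the median difference was −16.2 percentile points. It was −9.18 without GFPminus replicate 1 and −10.7 without GFPminus replicate 2. The share was 77.9% of regions called in GFPplus replicate 1, 67.9% in replicate 2 and 81.1% in replicate 3. Over all regions with 3 GFPminus peaks and a peak in that GFPplus list, the 2328 included, it was 50.9%, 47.1% and 63%. In the regions with 2 GFPplus calls it was 73.5%, 64.8% and 78.4%, and in those with 3 GFPplus calls 46.1%, 42.8% and 62.0%. The low GFPplus rank was thus not particular to the 2328 regions, as regions with 2 GFPplus calls came close to the same shares. With the highest GFPplus peak taken in every region with at least 1 GFPplus call, it was 33.2%. Set against single libraries, the GFPplus call ranked below GFPminus replicate 1 in 81.2% and below GFPminus replicate 2 in 80.8% of the regions, but below GFPminus replicate 3 in 46.0%. It ranked below all 3 GFPminus peaks in 961 regions and above all 3 in 219. At equal length the share below the mean was 72.2%, and the shares below the single GFPminus libraries lay between 68.9% and 70.3%. Over all equal-length regions with 3 GFPminus peaks and at least 1 GFPplus peak it was 30.1%, again by the highest GFPplus peak. The highest of up to 3 peaks ranks higher by construction than a single peak. The 33.2% and 30.1% are therefore not like-for-like baselines, and none per list was computed at equal length. Since a region with several GFPplus calls is by rule no member, a low GFPplus rank is in part what the rule selects.

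The reads behind the calls were few in these regions and in the whole lists. The GFPplus summits held a median of 12 extended reads in replicates 1 and 2 and of 8 in replicate 3, over a local background of 1.83, 1.82 and 0.928. The GFPminus summits of the same regions held a median of 18, 17 and 9 reads in replicates 1, 2 and 3, over a background of 2.34, 2.39 and 1.02. Over all peaks of each list the median was 15, 14 and 11 reads in GFPplus replicates 1, 2 and 3. In GFPminus replicates 1, 2 and 3 it was 13, 13 and 11. Pileups are not adjusted for depth, so reads of different libraries are given side by side and not compared. No more than 3 reads above that lowest pileup lay 31.5% of the calls in GFPplus replicate 1, 29.6% in replicate 2 and 62.7% in replicate 3, where all peaks of these lists gave 20.1%, 24.1% and 28.3%. No list held a peak with q above 0.05, and calls near that limit were a small share here, as in the whole lists. A −log10 q under 2 was found for 2.95%, 2.43% and 4.72% of the GFPplus calls in replicates 1, 2 and 3, against 2.26%, 2.62% and 2.72% of all peaks in those lists. The call nearest the limit, on chromosome 11 at 10820753 to 10820868 in GFPplus replicate 3, had 5 reads, a fold of 3.02 and a −log10 q of 1.304.

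The regions took a middle place among those called in all GFPminus libraries. Just outside the rule on one side are the 1594 regions with no GFPplus call, and on the other the 3987 with 2 GFPplus calls and the 20275 with 3. From 0 to 3 GFPplus calls, the median percentile in GFPminus replicate 1 was 67.6, 72.8, 78.3 and 88.7. In GFPminus replicate 2 it was 65.0, 71.5, 77.7 and 88.6, and in GFPminus replicate 3 it was 29.0, 34.4, 40.2 and 65.8. In each GFPminus library the median was thus higher the more GFPplus lists held the regions. The GFPplus percentile in replicate 2 was 45.0 with 1 call, 54.9 with 2 and 82.8 with 3. Region width followed the same order, with medians of 392, 424, 462 and 589 bp, although merging more peaks widens a region by construction.

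**Figure D2:**
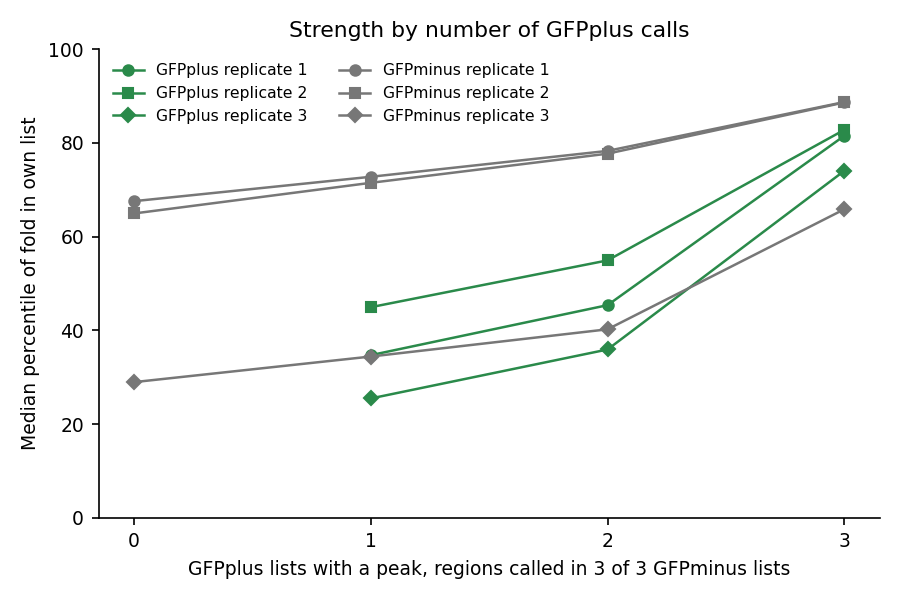
Median percentile of fold within the own list (y axis) for regions called in all 3 GFPminus lists, by the number of GFPplus lists with a peak (x axis). Green lines are the GFPplus and grey lines the GFPminus lists, with a marker for each replicate. Every line goes up to the right, and the regions described here are the points at 1.

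The opposite pattern, 3 GFPplus calls and exactly 1 GFPminus call, was found in 2217 regions (6.83% of those with 3 GFPplus calls). This count and the 2328 hold for the lists as deposited and depend on their lengths. Without GFPminus replicate 3 the 2328 became 11906, and the opposite pattern was not recounted. In the 2328 regions the lone GFPplus call had a median percentile of 25.5 to 45.0 by library. In the 2217 opposite regions the lone GFPminus call had a median percentile of 38.4 in the 1015 regions called in replicate 1, 41.3 in the 1122 called in replicate 2 and 24.2 in the 80 called in replicate 3. The medians of replicates 1 and 2 fell within the range of the lone GFPplus calls and that of replicate 3 just under it, in lists of other lengths. The GFPplus peaks of those opposite regions had median percentiles of 64.6, 51.6 and 53.4.

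The lone GFPplus calls were not spread evenly over the GFPplus libraries. GFPplus replicate 2 held 1316 of the 2328 calls (56.5%, 95% Wilson interval 54.5% to 58.5%, counting error only), GFPplus replicate 1 held 779 (33.5%) and GFPplus replicate 3 held 233 (10.01%). Replicates 1 and 2 have lists of nearly the same length. Over all 51409 regions with exactly 1 GFPplus call, replicate 2 held 44.8%, replicate 1 held 40.3% and replicate 3 held 14.9%. The share of replicate 2 went up with the number of GFPminus libraries that also held the region. It was 38.9% with 0, 47.8% with 1, 54.3% with 2 and 56.5% with 3 GFPminus calls, while that of replicate 1 was 43.1%, 38.9%, 36.1% and 33.5%. The same order was found at equal length, where the share of replicate 2 was 30.8%, 43.3%, 53.6% and 56.8%. Over all regions with 1 GFPplus call at equal length it was 38.7%, against 28.8% in replicate 1 and 32.6% in replicate 3. The cause was not tested.

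**Figure D3:**
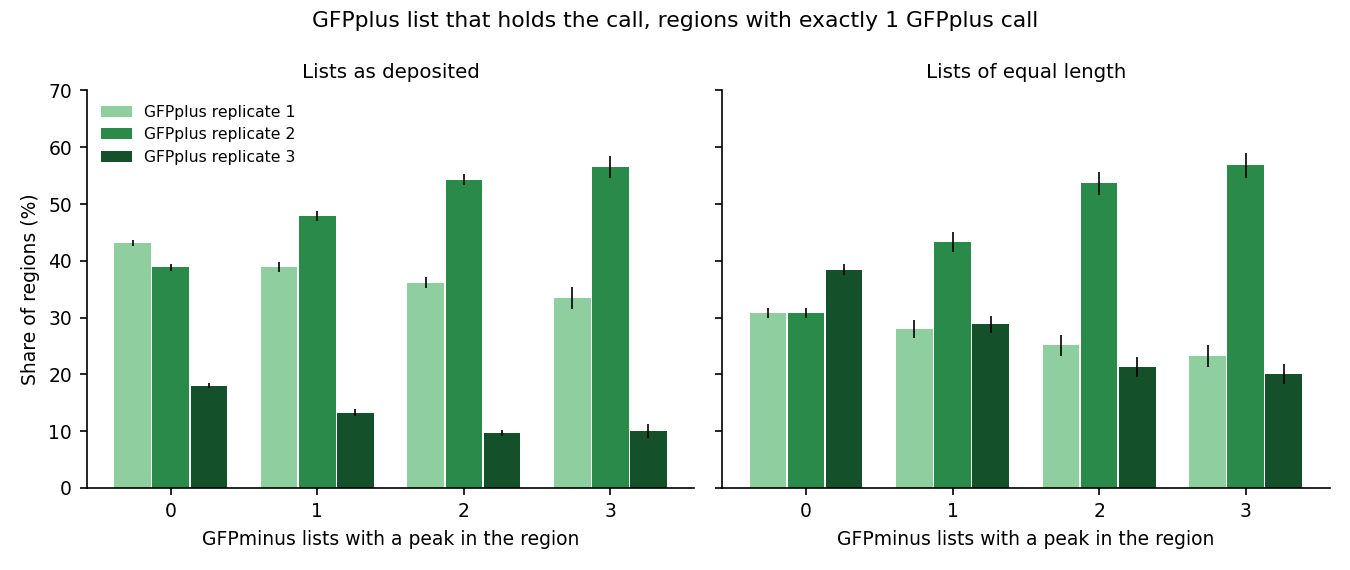
Share of regions with exactly 1 GFPplus call whose call lies in GFPplus replicate 1, 2 or 3 (y axis, percent), by the number of GFPminus lists with a peak in the region (x axis), for lists as deposited and of equal length. Bars are shares and lines 95% Wilson intervals, which cover counting error only. The regions described here are at 3 for lists as deposited, where replicate 2 holds 56.5%. At equal length the bars at 3 are 1892 regions, of which only 277 are among the 2328, and replicate 2 holds 56.8%.

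The lone calls also ranked higher where more GFPminus libraries held the region. In GFPplus replicate 1 the median percentile was 22.6, 25.9, 30.4 and 34.7 with 0, 1, 2 and 3 GFPminus calls. In GFPplus replicate 2 it was 25.1, 28.9, 36.9 and 45.0. In GFPplus replicate 3 it was 20.1 with 0 GFPminus calls and 25.5 with 1, 2 or 3, so the trend there ended at the first step. The lone calls of these 2328 regions were thus not the faintest of their kind.

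Among themselves the regions spanned the GFPplus lists from the bottom to near the top. The GFPplus call ranked under the 10th percentile in 253 regions (10.9%), from the 10th to the 50th in 1273 (54.7%), from the 50th to the 90th in 790 (33.9%) and higher in 12 (0.515%). The word faint therefore does not describe the rank of the 802 calls above the 50th percentile of their own list. Of the 12 strongest, 11 were called in GFPplus replicate 2 and 1 in GFPplus replicate 3. Calls above the 50th percentile made up 25.3% in GFPplus replicate 1, 42.7% in replicate 2 and 18.5% in replicate 3. From the lowest to the highest of these 4 classes the median of the mean GFPminus percentile was 50.3, 56.6, 60.5 and 78.2, so regions with a stronger GFPplus call had somewhat stronger GFPminus peaks. As a description over the 2328 regions, which share libraries, Spearman's rho between GFPplus and mean GFPminus percentile was 0.172. Between GFPminus replicates 1 and 2 it was 0.700, and between GFPminus replicate 3 and either of them 0.403 and 0.405. Between single GFPplus and single GFPminus libraries rho was 0.0446 to 0.188 in these regions. In regions called in all 6 libraries it was 0.570 to 0.712. The 2 sets cover different ranks, so these values are not like for like. Above the 90th percentile lay 0%, 0.836% and 0.429% of the lone calls in GFPplus replicates 1, 2 and 3. In regions called in all 6 libraries it was 29.8%, 32.3% and 22.2%. The effect on rho was not tested.

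**Figure D4:**
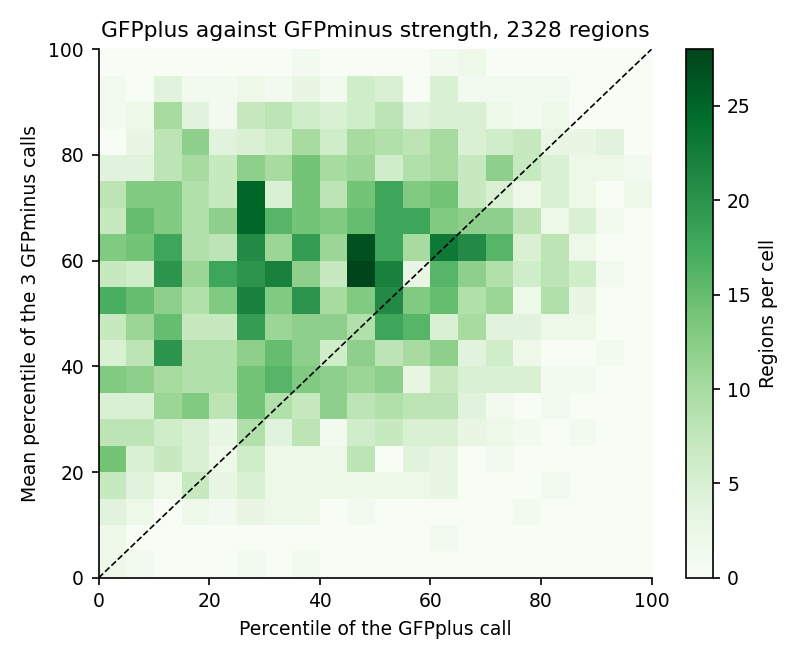
Percentile of the GFPplus call (x axis) against the mean percentile of the 3 GFPminus calls (y axis) for the 2328 regions, as the number of regions per cell of 5 by 5 points. Regions above the dashed line of equal rank (72.6%) ranked lower in GFPplus than in GFPminus, and the cloud is broad, with a rho of 0.172.

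By the merging rule the GFPplus peak overlaps at least 1 GFPminus peak, and it was mostly narrower than the GFPminus peaks. In 2116 regions (90.9%) each of the 4 lists had exactly 1 peak. The GFPplus peak itself overlapped a peak of all 3 GFPminus lists in 2107 regions (90.5%), of 2 lists in 182 and of 1 list in 39, where the rest were linked through other peaks. Its median width was 187, 197 and 142 bp in GFPplus replicates 1, 2 and 3, against 318, 297 and 226 bp in GFPminus replicates 1, 2 and 3. The shortest peak of the whole list was 115, 115 and 116 bp in GFPplus replicates 1, 2 and 3. In GFPminus replicates 1, 2 and 3 it was 110, 108 and 160 bp. Widths set against GFPminus replicate 3 are therefore not like for like. The GFPplus peak was narrower than the peak of GFPminus replicate 1 in 77.6% and than that of replicate 3 in 64.9% of the regions, and wider than every GFPminus peak in 253. In 1181 regions (50.7%) it lay wholly inside the peak of GFPminus replicate 1.

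Summits of the 2 fractions lay about as close as those of GFPminus replicate 3 and either other GFPminus library. Those of GFPminus replicates 1 and 2 were closer. The GFPplus summit was a median of 53 bp from the median GFPminus summit, and within 50 bp in 48.1% of the regions. From single libraries it was 58, 58 and 68 bp away for GFPminus replicates 1, 2 and 3. Between GFPminus replicates 1 and 2 the distance was 46 bp, and between replicate 3 and either of them 65 and 63.5 bp. Where the GFPplus call ranked above the 50th percentile, the distance to the median GFPminus summit was 42 bp, and where it ranked under the 10th it was 70 bp. In regions called in all 6 libraries the 3 GFPplus libraries lay 29, 30 and 34 bp from the median GFPminus summit. Stronger calls thus went with closer summits.

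**Figure D5:**
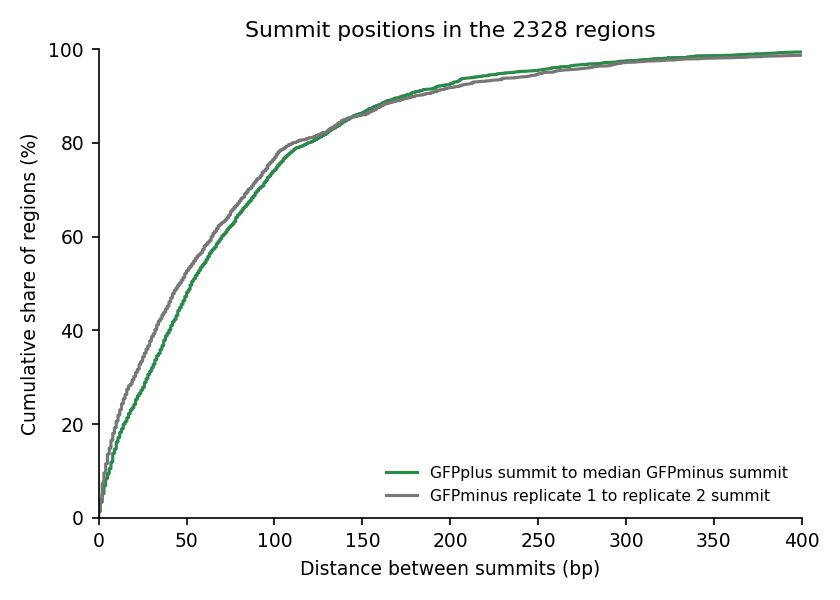
Cumulative share of the 2328 regions (y axis, percent) by distance between summits (x axis, bp; distances over 400 bp not shown). The green line is the GFPplus summit to the median of 3 GFPminus summits (median 53 bp). The grey line is GFPminus replicate 1 to replicate 2 (median 46 bp). The measures are unlike, and from GFPplus to the single GFPminus replicates 1 and 2 the median was 58 bp each.

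The 5 regions with the highest GFPplus rank were all called in GFPplus replicate 2 and had folds of 9.27 or more there. The first, on chromosome 24 at 11700101 to 11700260 (160 bp), had a fold of 10.04 from 25 reads in GFPplus replicate 2, against 6.11, 8.47 and 5.54 from 16, 23 and 9 reads in GFPminus replicates 1, 2 and 3. Its summits in GFPplus and at the median of GFPminus were the same base. The second, on chromosome 20 at 43221217 to 43221643, had a fold of 9.99 in GFPplus replicate 2 and of 8.27, 9.06 and 4.75 in GFPminus replicates 1, 2 and 3. A region on chromosome 9 at 50602302 to 50602688 also had a fold of 9.99, against 6.68, 7.91 and 6.18. In these 3 regions the GFPplus value lay above all 3 GFPminus values, which a pick by the highest GFPplus rank favours. GFPplus replicates 1 and 3 had no peak there. The other regions were on chromosome 25 at 2443089 to 2443452, with 9.83 in GFPplus replicate 2 against 6.80, 10.8 and 5.75, and on chromosome 3 at 3631072 to 3631895, with 9.27 against 9.70, 11.7 and 5.54. There the GFPplus value fell within the GFPminus range.

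The 5 regions with the strongest GFPminus calls (ranked by the weakest of their 3 −log10 p values) ranked at the 84.9 percentile or higher in the GFPminus lists and between the 30.5 and 66.2 percentile in the GFPplus list. On chromosome 8 at 5121001 to 5121416 the fold was 4.25 from 10 reads in GFPplus replicate 2, against 11.4, 13.8 and 13.9 from 36, 40 and 28 reads in GFPminus replicates 1, 2 and 3. The GFPplus call ranked at the 39.4 percentile and the GFPminus peaks at the 96.6, 98.6 and 98.4. On chromosome 9 at 55014603 to 55015161 the fold was 5.78 in GFPplus replicate 1, against 14.7, 14.0 and 13.6 in the GFPminus libraries (14.1 ± 0.553, SD, n = 3). On chromosome 14 at 18493565 to 18494021 it was 4.58 in GFPplus replicate 2, against 9.22, 9.51 and 11.0. The rule picks regions that are high in all 3 GFPminus lists. Those on chromosome 18 had 5.02 in GFPplus replicate 2 against 9.71, 9.60 and 10.8 (9811332 to 9812080), and 3.998 in GFPplus replicate 2 against 8.83, 8.90 and 8.43 (48189915 to 48190588).

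The widest gaps in rank, by the mean GFPminus percentile minus the GFPplus percentile, combined a call at the bottom of the GFPplus list with strong GFPminus peaks. On chromosome 5 at 60603471 to 60603853 the fold was 3.09 from 7 reads in GFPplus replicate 2, the lowest pileup called in that list, against 11.5, 10.2 and 7.76 from 31, 28 and 13 reads in GFPminus replicates 1, 2 and 3. Its GFPplus percentile was 2.85, against 96.6, 95.2 and 80.5 in the GFPminus lists. A region on chromosome 15 at 13294357 to 13295154 had the same GFPplus fold of 3.09 from 7 reads, against 12.1, 7.95 and 7.76. The GFPplus summits of these regions lay 158 and 43 bp from the median GFPminus summit. On chromosome 14 a region at 48048385 to 48048880 had a fold of 3.48 in GFPplus replicate 2 against 12.5, 8.45 and 9.90, and one at 41514826 to 41515333 had 3.72 from 6 reads in GFPplus replicate 3 against 8.99, 10.3 and 7.41. The fifth, on chromosome 10 at 32419862 to 32420327, had 3.29 in GFPplus replicate 2 against 8.77, 7.10 and 7.79. In all 5 the GFPplus value lay below all 3 GFPminus values, which a pick by the widest gap nearly fixes. Over all 2328 regions the GFPplus call ranked below all 3 GFPminus peaks in 41.3%.

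The regions nearest the medians show what a usual one looked like. On chromosome 6 at 15613988 to 15614384 the fold was 4.25 from 10 reads in GFPplus replicate 2, against 5.79, 5.601 and 4.41 from 16, 17 and 8 reads in GFPminus replicates 1, 2 and 3. The GFPplus peak there was 161 bp wide, and the GFPminus peaks 333, 397 and 252 bp. A region on chromosome 15 at 6169145 to 6169424 had the same GFPplus fold, against 6.75, 5.65 and 4.15, and one on chromosome 3 at 59251177 to 59251675 had it against 6.83, 4.24 and 4.91. In all 3 the GFPplus value lay below that of GFPminus replicate 1. Against GFPminus replicate 3 it lay lower in the regions on chromosomes 6 and 3 and higher in the one on chromosome 15.

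The regions were spread over the genome. On the 25 numbered chromosomes there were 2267, and 61 lay on scaffolds. Their share of all regions called in 3 GFPminus libraries was 8.25% on the numbered chromosomes and 8.80% on scaffolds. By chromosome the share was lowest on chromosomes 22 (6.15%, 52 of 846) and 2 (6.27%, 78 of 1244) and highest on chromosomes 11 (9.96%, 110 of 1104) and 9 (10.3%, 118 of 1146). Chromosomes were not tested. Of 13098 windows of 100 kb with a union region, 1922 held at least 1 of the regions and 290 held 2 or more.

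Another region of the same kind lay within 10 kb of 169 of the 2267 (7.45%), and the median distance to the nearest one was 140 kb. A region of their own kind lay within 10 kb of 5.69% of the 1563 GFPminus-only regions and of 6.51% of the 2165 regions of the opposite pattern. Of the 2267, 5.34% had a GFPminus-only region within 10 kb and 3.22% a GFPplus-only region, where there were 1563 and 2250 of these. The nearest region called in all 6 libraries was a median of 19.9 kb away, against 16.8 kb for the opposite pattern and 24.1 kb for GFPminus-only regions. These distances depend on how many regions each kind has and were not tested.

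The densest window lay on chromosome 18 at 5100001 to 5200000, with 5 of its 17 union regions. From left to right they had folds of 4.05 (GFPplus replicate 1), 3.63 (GFPplus replicate 3), 4.19 (GFPplus replicate 1), 4.48 and 3.91 (GFPplus replicate 2). The GFPminus means of the same regions were 5.28 ± 0.675, 5.20 ± 0.489, 6.92 ± 1.49, 5.16 ± 0.563 and 5.83 ± 0.812 (SD, n = 3 each). Each GFPplus value lay below all 3 GFPminus values of its region, and every one of the 3 GFPplus libraries held a call in this window. It held 3 regions called in all 6 libraries and no GFPminus-only region.

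The next windows, with 4 of 16 union regions each, were on chromosome 6 at 14400001 to 14500000 and on chromosome 11 at 16800001 to 16900000. On chromosome 6 the GFPplus folds were 5.70, 5.78, 4.24 and 4.62, against GFPminus means of 8.80 ± 3.02, 7.71 ± 0.610, 5.66 ± 1.52 and 4.38 ± 1.304 (SD, n = 3 each). On chromosome 11 they were 4.63, 6.56, 5.02 and 4.15, against 10.8 ± 1.87, 4.73 ± 0.796, 6.49 ± 0.435 and 4.70 ± 0.220 (SD, n = 3 each). In the second region of the chromosome 11 window (16810134 to 16810430) the GFPplus fold lay above all GFPminus folds, which were 5.35, 5.004 and 3.83. The region to its left (16809421 to 16810002) had a GFPplus fold of 4.63 against 11.7, 12.03 and 8.66 in GFPminus replicates 1, 2 and 3. GFPplus replicates 1 and 3 had no peak in either region.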

How the data were processed

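Sequencing reads were processed by the authors. Per the submitters' processing notes, the tools were MACS2, deepTools, Bowtie2 2.1.0 and cutadapt 1.3, with Zv9 (danRer7) as the build. Caller and aligner settings: not given in the sources used here. Per the file headers, MACS2 called peaks in single libraries. For every peak the deposited list gives the summit and 4 values: fold enrichment, which is a ratio to the local background, −log10 of p, −log10 of q, and a score, which was not used.

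The members and the rule for named regions were chosen with earlier results of these data known. Peaks were merged in Python 3.11.15 with pandas 2.3.3. Where a list had several peaks in a region, the one with the highest fold was used. A percentile is the mid-rank of the fold within the list. The pileup was solved from fold = (pileup + 1) / (background + 1) and the Poisson tail above the pileup, accepting a single whole number that returned the deposited −log10 p within 0.0002. The merging and the pileup step were tested on simulated data. Named regions are the 5 with the highest GFPplus percentile, the 5 ranked first by their weakest GFPminus −log10 p, the 5 with the widest gap in percentile, the 3 nearest the medians, and the 3 windows of 100 kb with most members. No p-value was computed, because the same lists chose the regions; an exact two-sided permutation test of 3 libraries against 3 could not give less than 0.1. Coordinates are 1-based, in Zv9. Read depth outside peaks is unknown, and reads without molecular identifiers are not independent molecules. The Wilson intervals treat regions as independent draws, although the regions share the same lists, so the intervals cover counting error only.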

Additional observations from a re-analysis of the deposited data

How the results depend on the processing

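No summit with fewer than 5 reads (libraries numbered 3) or 7 reads (the others) was called, and a list without a peak may still hold reads. Whether depth limits the calls was not tested. The 2328 regions became 1316 with a −log10 q of at least 5 and 1320 with a fold of at least 5, and 4662 in lists of 50396 peaks without GFPminus replicate 3, a setting chosen after the data had been seen. Leaving out 1 library gave 2607 to 11906 regions, with 5010 without GFPplus replicate 1, 4487 without GFPplus replicate 2 and 11906 without GFPminus replicate 3. The difference in percentile from the mean of the GFPminus peaks was negative in every setting run (−9.35 in the added one, −19.9 to −9.18 without 1 library). Each setting kept GFPminus replicate 1 or 2 in that mean. The pooled GFPminus percentile of 60.8 was 50.7 to 67.6 without 1 library. The GFPplus percentile of 39.4 became 28.9 with a fold of at least 5 (34.7 to 48.7 without 1 library), and the share of calls above the 50th percentile, 34.5%, became 21.8% (27.4% to 48.1% without 1 library). The summit distance of 53 bp became 41 bp with a −log10 q or with a fold of at least 5, 39 bp at equal length, and 38.5 bp in the added setting (47 to 57 bp without 1 library). GFPplus replicate 2 held 52.7% of the calls with a −log10 q of at least 5, 49.2% with a fold of at least 5 and 53.1% in the added setting (54.9% to 85.1% without 1 library). GFPplus replicate 1 held 40.3% with a −log10 q of at least 5, 23.2% at equal length and 28.7% in the added setting (33.4% to 83.0% without 1 library), and GFPplus replicate 3 held 7.07% with a −log10 q of at least 5, 15.8% with a fold of at least 5, 20.03% at equal length and 18.2% in the added setting (9.47% to 17.0% without 1 library). With a GFPplus library left out, the calls are split over fewer lists. The upper ends of these ranges of shares (85.1%, 83.0% and 17.0%) are therefore higher by construction. Regions that had 2 GFPplus calls can also enter then. The counts, the GFPplus percentile of 48.7 and the 48.1% above the 50th percentile without GFPplus replicate 1 are thus of an altered set. GFPplus replicate 2 held the largest share in each setting run that kept it. The cause was not tested. Overlap rules, chromosome sets, ranking by −log10 p and averaging several peaks left all values within the spread between libraries or, for shares, within the counting interval, and the counts within 1.5 times.

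At equal length 277 of the 2328 regions (11.9%) kept this pattern, and 722 (31.01%) kept 3 GFPminus calls and lost the GFPplus call. The others lost GFPminus calls. Without a GFPplus call, 646 kept 1 and 355 kept 2 GFPminus calls, and with it 172 kept 1 and 156 kept 2. The call of GFPminus replicate 1 was kept in 54.3% of the regions, that of replicate 2 in 53.4% and that of replicate 3 in 100%. Those 277 were 14.6% of the 1892 regions found at equal length; 846 of the 1892 had 2 and 769 had 3 GFPplus calls as deposited. No paired analysis was possible because the results come from no test, and the labels do not say whether equal replicate numbers mark a shared occasion. Between same-numbered libraries the GFPplus minus GFPminus percentile had a median of −32.5, −24.3 and −5.45 for replicates 1, 2 and 3. The sign did not hold for all pairs. Against GFPminus replicate 3 the median was 2.93 over all 2328 regions. It was 1.72 for those called in GFPplus replicate 1 and 5.84 for those called in GFPplus replicate 2.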
